A study of Mus musculus with 6 samples.

Results

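The genes described here are 35 genes of protein folding, quality control and stress signalling in the endoplasmic reticulum (ER). They were chosen by name, with earlier results of these data known, as a set of chaperones, disulfide isomerases, degradation factors, stress sensors and translocon subunits. All 35 were found, out of 18193 genes that the annotation of the array names through a probe set of a single gene. Levels are log2 values, so that 1 unit is a doubling, and each gene was read from its probe set of highest mean level over the 6 arrays, with other probe sets given for a number of the genes where they differ.

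The arrays held wire-injured carotid arteries of SMC-IRF9-TG animals and of non-transgenic (NTG) controls, both C57BL/6 by the labels and stated in the methods to be male and 10 to 12 weeks old. SMC-IRF9-TG mice express mouse IRF9 cDNA from a minimal SM22α promoter, which is active in smooth muscle cells, and IRF9 is the DNA-binding subunit of the interferon-activated complex ISGF3. Both genotypes underwent wire injury, which strips the endothelium and stretches the wall, and arteries were taken 14 days later, so that no uninjured artery enters the comparison. Each genotype had 3 pools of 3 to 5 vessels, with 400 ng of total RNA per array. The labels call the pools biological replicates without tying them to animals, so p-values measure the spread between pools, and in whole arteries fewer cells of a type cannot be told apart from less RNA per cell.

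Secreted and membrane proteins enter the ER through the Sec61 channel, are folded there by chaperones and disulfide isomerases, and are sent back to the cytosol for destruction when they fail to fold. When unfolded protein accumulates, the sensors IRE1 (Ern1), PERK (Eif2ak3) and ATF6 start the unfolded protein response: IRE1 splices Xbp1 mRNA, PERK slows translation and favours ATF4, and ATF6 is cut to release a transcription factor. In the vessel wall, cells that secrete collagen and other matrix carry a heavy folding load. The array reads mRNA and not splicing of Xbp1, phosphorylation of PERK or cleavage of ATF6.

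Some properties of the arrays bear on all values below. Contractile smooth muscle markers were plentiful in both genotypes, with Acta2 at 13.56 ± 0.08 in SMC-IRF9-TG and 13.42 ± 0.17 in NTG pools (SD, n = 3 each). Irf9 itself read 5.46, 5.41 and 5.58 in SMC-IRF9-TG pools against 4.75, 5.43 and 5.36 in NTG pools, so that NTG pool 2 lay within the SMC-IRF9-TG pools and this probe set did not separate the genotypes. The 3′ minus 5′ signal of Actb, a measure of RNA integrity and labelling, was 1.56 to 2.50 in SMC-IRF9-TG pools and 2.21 to 7.09 in NTG pools, with the highest value in NTG pool 2. Xist, made from the inactive X chromosome, read 2.94 to 3.72 in SMC-IRF9-TG pools, and 9.94, 9.50 and 4.08 in NTG pools 1, 2 and 3, although the methods state male mice. The deposited columns also differed in spread, with lower quartiles of 2.33 to 2.41 in SMC-IRF9-TG and 2.57 to 2.66 in NTG pools and upper quartiles of 5.25 to 5.33 in SMC-IRF9-TG and 4.97 to 5.08 in NTG pools. The part of these properties in the differences was not tested.

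Most of the 35 genes read higher in SMC-IRF9-TG arteries, but few of the differences passed the test. With limma and Benjamini-Hochberg adjustment over 45037 probe sets, at a threshold of 0.05, 5 genes were higher (Hsp90b1, Pdia4, Pdia6, Eif2ak3 and Ssr1), 1 was lower (Edem1, contradicted by its other probe set) and 29 were not called. The 5 higher genes are 14.3% of the set, where 3.11% of all named genes were called higher and 4.68% of the 11736 named genes whose level lies above the array's median. The lower gene is 2.86% of the set, where 0.511% of named genes were called lower. These calls depended on the processing: quantile normalization left 1 higher (Pdia6) and Edem1 lower, a replicate block left 2 higher (Hsp90b1 and Pdia6) and Edem1 lower, and the methods' t-test left none in either direction after adjustment, with 12 unadjusted p-values under 0.05. Of all probe sets, quantile normalization called 1.21% higher and the replicate block 1.46%, against 2.37% with neither. The methods' test called 0 higher and 1 lower of all 45037 probe sets, so its lack of calls says nothing of these genes. For its unadjusted count, the share of all probe sets was not counted. In the limma fit without adjustment, 21 genes were higher and 1 was lower at p under 0.05, where 24.7% of named genes passed in either direction.

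The groups were often separate even where the test was not passed. Every SMC-IRF9-TG pool lay above every NTG pool in 21 genes, below every NTG pool in 1, and the pools overlapped in 13. That is 60.0% of the set lying above, against 16.1% of named genes and 23.5% of the brighter named genes; 16.1% of named genes also lay below. The median difference of the 35 genes was 0.81, against -0.05 for all named genes and 0.17 for the brighter ones, and 28 differences (80.0%) were positive, against 46.3% and 62.3%. An exact permutation test over 3 against 3 pools cannot go below 0.1, the value it gave for each of the genes without overlap.

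**Figure D1:**
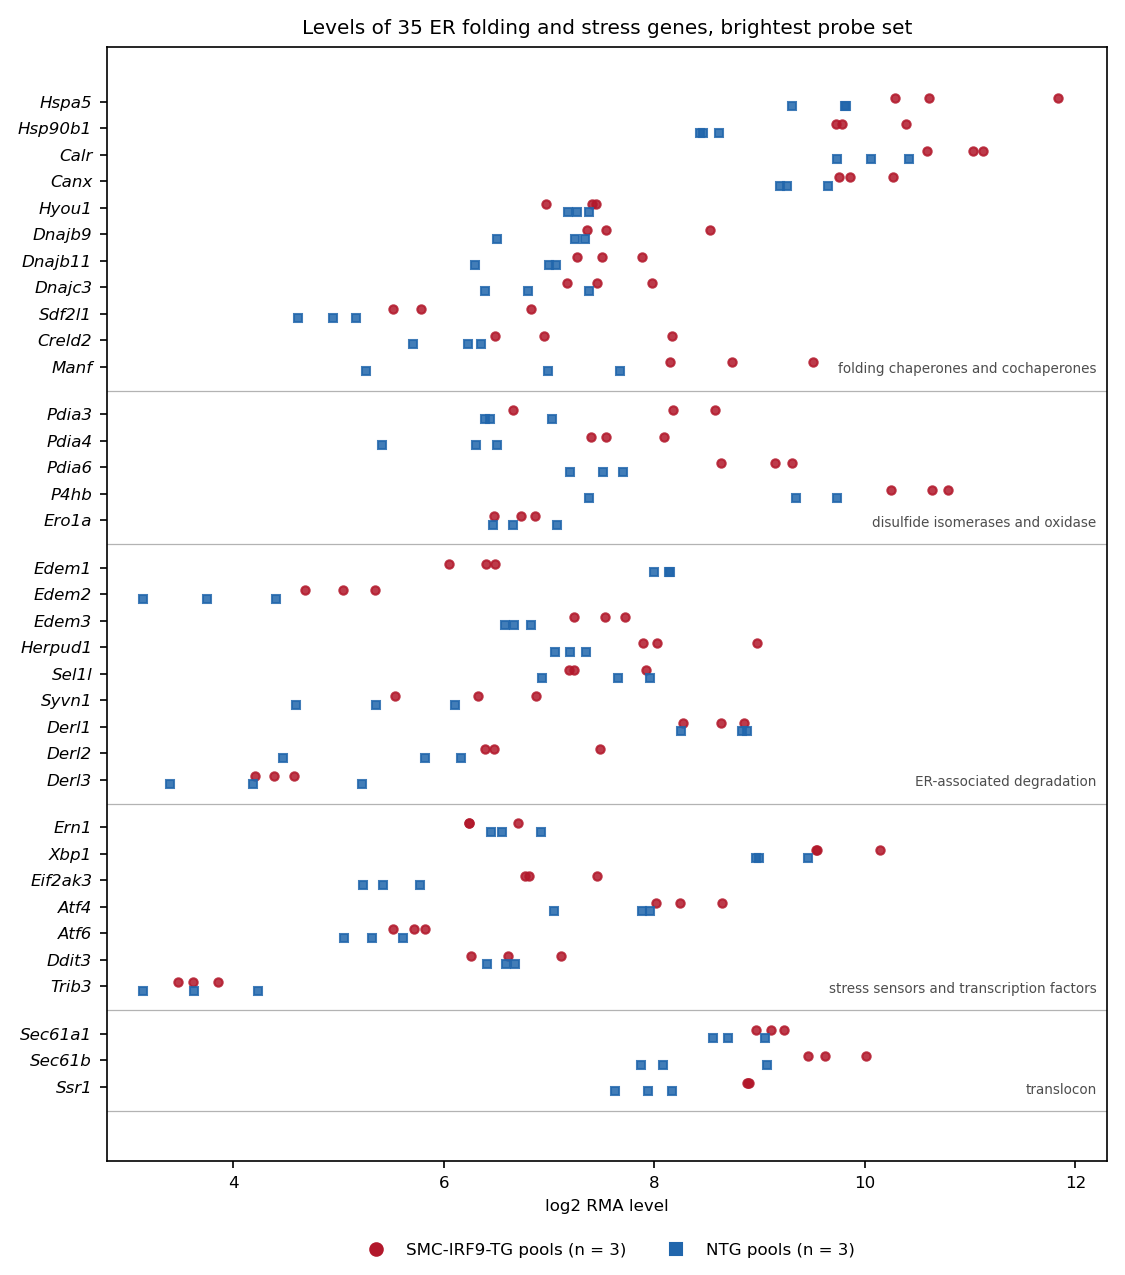
Log2 level of each gene in each pool, by role (y axis: gene, x axis: log2 RMA level of its brightest probe set). Circles are the 3 SMC-IRF9-TG pools, drawn just above the squares for the 3 NTG pools. In 21 genes all circles lie to the right of all squares, in Edem1 they lie to the left, and in 13 genes they overlap.

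Promoters of ER chaperone genes carry the ER stress response element (ERSE), which ATF6 binds together with the CCAAT-binding factor NF-Y. It was defined from the promoters of genes such as Hspa5, Hsp90b1 and Calr, so its presence in them is no result of these arrays. In windows of 250 bases before to 50 after each transcription start (RefSeq, GRCm38.p6), read on both strands, CCAAT, then 9 bases of any kind, then CCACG was found in 9 of the 30 genes that have a window, against 0.119% of 32851 windows. The 9 are Hspa5, Hsp90b1, Calr, Canx, Dnajc3, Creld2, Pdia6, Syvn1 and Derl3, and Hsp90b1 held it at 2 positions. No window was used for Hyou1, Manf, Derl1, Atf6 and Sec61a1. The shorter relative ERSE-II, searched as ATTGG, 1 base of any kind and CCACG, was found in Herpud1 and Dnajb11, against 0.0365% of windows, and no gene of the set held both.

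The 250 bases before the Hspa5 start are shown whole, because this is the reference ERSE promoter, with the match in capitals. They lie at chr2:34771840-34772089 on the plus strand.
Hspa5: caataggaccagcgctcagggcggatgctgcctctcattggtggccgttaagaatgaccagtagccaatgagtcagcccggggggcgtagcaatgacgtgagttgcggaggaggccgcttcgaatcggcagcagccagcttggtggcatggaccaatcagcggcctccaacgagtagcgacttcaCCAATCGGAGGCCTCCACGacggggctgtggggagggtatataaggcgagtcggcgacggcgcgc

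Shorter stretches, with 20 bases on each side of the match in capitals, are shown for both ERSE genes that were called, for Creld2 as the gene that stood highest in SMC-IRF9-TG pool 1 relative to the other SMC-IRF9-TG pools, for Derl3 as an ERSE gene without a difference, and for Herpud1 as the ERSE-II example. Hsp90b1 (chr10:86705618-86705676 and chr10:86705513-86705571, minus strand), Pdia6 (chr12:17266471-17266529, plus), Creld2 (chr15:88819500-88819558, plus), Derl3 (chr10:75893222-75893280, plus) and Herpud1 (chr8:94386357-94386407, plus) are each written along the gene's own strand. The second Hsp90b1 match and those of Creld2 and Derl3 run in the reverse complement.
Hsp90b1 first: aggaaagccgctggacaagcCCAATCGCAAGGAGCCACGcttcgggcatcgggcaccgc
Hsp90b1 second: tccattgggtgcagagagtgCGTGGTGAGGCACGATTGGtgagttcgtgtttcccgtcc
Pdia6: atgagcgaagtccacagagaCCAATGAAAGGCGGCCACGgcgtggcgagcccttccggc
Creld2: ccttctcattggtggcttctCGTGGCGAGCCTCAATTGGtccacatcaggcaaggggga
Derl3: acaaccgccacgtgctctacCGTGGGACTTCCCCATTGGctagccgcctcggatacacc
Herpud1: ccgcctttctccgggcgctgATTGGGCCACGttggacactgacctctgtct

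The 11 genes with either element all had a positive difference, from 0.12 for Derl3 to 1.56 for Pdia6, with a median of 0.89, and 2 were called higher. The 19 genes with a window and neither element had a median of 0.81, with 14 positive differences and 3 called higher. Outside the set, 18 measured genes carried either element, with a median of -0.11, 7 positive differences and no call in the limma fit. Having the element thus went with little difference within the set, and no test was made of it. The XBP1 element TGACGTGG, whose reverse complement begins with the CCACG of ERSE, the ATF4 element TGATGNAAT and the interferon response core (GAAA, 2 bases of any kind, GAAA) were in none of the 30 windows, against 0.676%, 0.965% and 3.44% of all windows. No match in these letters and this window says nothing of whether a factor binds.

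**Figure D2:**
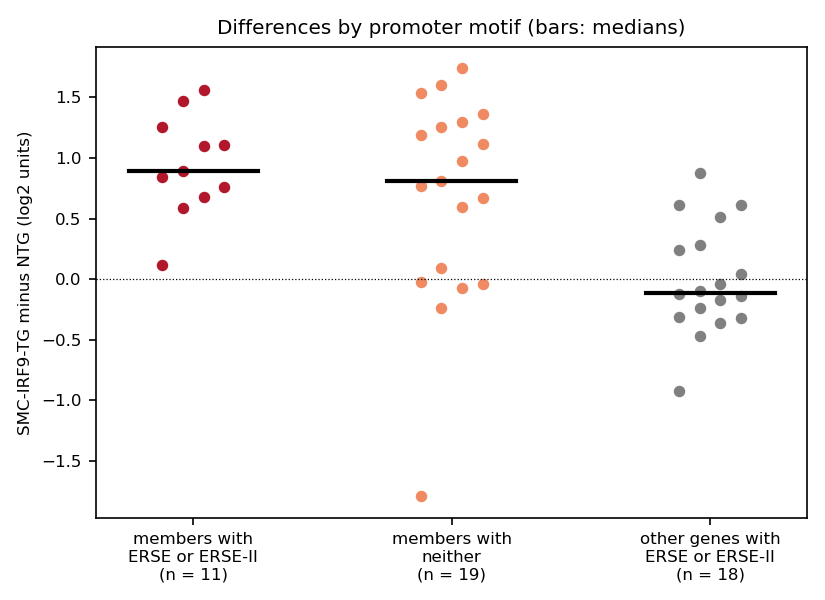
Difference of each gene (y axis: SMC-IRF9-TG minus NTG, log2 units) by promoter element, with a bar at each median. The medians are 0.89 for the 11 genes of the set with ERSE or ERSE-II, 0.81 for the 19 with neither, and -0.11 for the 18 other genes that carry either.

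Among 11 folding chaperones and cochaperones, 1 was called higher and 10 were not called, 8 differences were positive at an unadjusted p under 0.05, and the median difference was 0.84. Hsp90b1, which encodes GRP94, the HSP90 of the ER, read 10.39, 9.78 and 9.73 in SMC-IRF9-TG pools against 8.46, 8.61 and 8.43 in NTG pools. All SMC-IRF9-TG pools were more than 1 unit above all NTG pools. The difference was 1.47 ± 0.23 (SE), a fold of 2.76, with a limma adjusted p of 0.016. A dimmer Hsp90b1 probe set, with overlapping pools, differed by 0.44 with an adjusted p of 0.479.

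Hspa5, which encodes BiP, the main HSP70 of the ER and the regulator of all 3 sensors, read 11.83, 10.61 and 10.29 in SMC-IRF9-TG pools against 9.82, 9.31 and 9.81 in NTG pools. The groups did not overlap, but SMC-IRF9-TG pool 1 stood far above the other two. The difference was 1.26 ± 0.38 (SE), with a 95% interval of 0.39 to 2.13 and a limma adjusted p of 0.12. Without SMC-IRF9-TG pool 1 it was 0.80.

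Calr, the soluble lectin chaperone calreticulin, read 11.12, 10.59 and 11.03 in SMC-IRF9-TG pools against 10.42, 9.74 and 10.06 in NTG pools. Its groups were separate by a small margin, with a difference of 0.84 ± 0.25 (SE) and a limma adjusted p of 0.113. Canx, its membrane-bound relative calnexin, differed by 0.59 on its brightest probe set.

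The other 7 members of this group were not called. Manf, a secreted ER stress protein, had the largest difference of the whole set, 2.16 ± 0.59 (SE), with NTG pool 2 at 5.26 against 6.99 and 7.67 in the other NTG pools. Without NTG pool 2 it was 1.47, no longer the largest, beside 1.52 for Hsp90b1 and 1.51 for Eif2ak3. Sdf2l1, a partner of BiP and ERdj3, differed by 1.12 and Creld2, an ER stress-inducible protein, by 1.11. The BiP cochaperones Dnajb9, Dnajb11 and Dnajc3 lay between 0.68 and 0.77. Hyou1, a nucleotide exchange factor of BiP, read 7.41, 6.97 and 7.45 in SMC-IRF9-TG pools against 7.27, 7.18 and 7.38 in NTG pools, and its 95% interval was -0.47 to 0.47.

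Of 5 disulfide isomerases and oxidases, 2 were called higher and 3 were not called, with a median difference of 1.56. Pdia6 read 9.31, 9.15 and 8.63 in SMC-IRF9-TG pools against 7.70, 7.20 and 7.51 in NTG pools. The lowest SMC-IRF9-TG pool was well above the highest NTG pool, and the difference was 1.56 ± 0.24 (SE), a fold of 2.94, with a limma adjusted p of 0.0159. Pdia4, a larger isomerase with additional thioredoxin domains, read 7.40, 8.09 and 7.54 in SMC-IRF9-TG pools against 6.51, 5.41 and 6.31 in NTG pools.

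The Pdia4 groups were also separate, with a difference of 1.60 ± 0.32 (SE), a fold of 3.03, and a limma adjusted p of 0.041. P4hb, which is both an isomerase and a subunit of the collagen prolyl hydroxylase, read 10.25, 10.64 and 10.79 in SMC-IRF9-TG pools against 9.74, 7.38 and 9.35 in NTG pools. NTG pool 2 alone was far below the rest, and the difference of 1.74, with a limma adjusted p of 0.126, was 1.02 with an adjusted p of 0.0632 without that pool. Pdia3, the isomerase that works with calnexin and calreticulin, differed by 1.19 with overlapping pools, and Ero1a, the oxidase that recharges the isomerases, by -0.04 on its brightest probe set and 0.86 on the next, both with overlapping pools.

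Of 9 genes of ER-associated degradation, none was called higher in the limma fit, 1 was called lower and 8 were not called, while 4 were higher at an unadjusted p under 0.05 and the median difference was 0.81. Edem1, a mannosidase-like protein that marks misfolded glycoproteins for disposal, read 6.49, 6.40 and 6.05 in SMC-IRF9-TG pools against 8.14, 8.0 and 8.15 in NTG pools on its brightest probe set. There the SMC-IRF9-TG pools were all lower, with a difference of -1.79 ± 0.20 (SE) and a limma adjusted p of 0.00412. The other probe set of the same gene read 7.29, 6.88 and 6.83 in SMC-IRF9-TG pools against 5.45, 5.00 and 4.87 in NTG pools.

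Here the order was turned round, with a difference of 1.89 ± 0.23 (SE) and a limma adjusted p of 0.00636. The direction of Edem1 mRNA is therefore not settled by these arrays, and which transcript each probe set reads was not tested. Its relatives Edem2 and Edem3 had differences of 1.26 and 0.81 with limma adjusted p-values of 0.089 and 0.0805 on their brightest probe sets. Their other probe sets differed by -0.30 for Edem2, with overlapping pools, and by -0.83 for Edem3, where every SMC-IRF9-TG pool lay below every NTG pool (limma adjusted p of 0.157), so that the direction of Edem3 is not settled either. Herpud1, a scaffold of the retrotranslocation complex, differed by 1.10 with an adjusted p of 0.0925, and on the brightest probe sets of these 3 genes the pools did not overlap.

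The ubiquitin ligase Syvn1 (HRD1) differed by 0.89 and its partner Sel1l by -0.07, both with overlapping pools. The derlins, which form part of the channel back to the cytosol, were spread out: Derl2 differed by 1.30, Derl3 by 0.12 and Derl1 by -0.07. The dimmer Derl1 probe sets differed by 0.38 with overlapping pools, and by 0.29 and 1.60 with separate pools. The last had NTG pool 2 at 3.24 and a limma adjusted p of 0.125. NTG pool 2 minus the mean of the other NTG pools was -1.52 in Derl2 and -1.30 in Derl3. Without that pool the differences were 0.79 for Derl2, -0.31 for Derl3 and 0.51 for Syvn1.

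**Figure D3:**
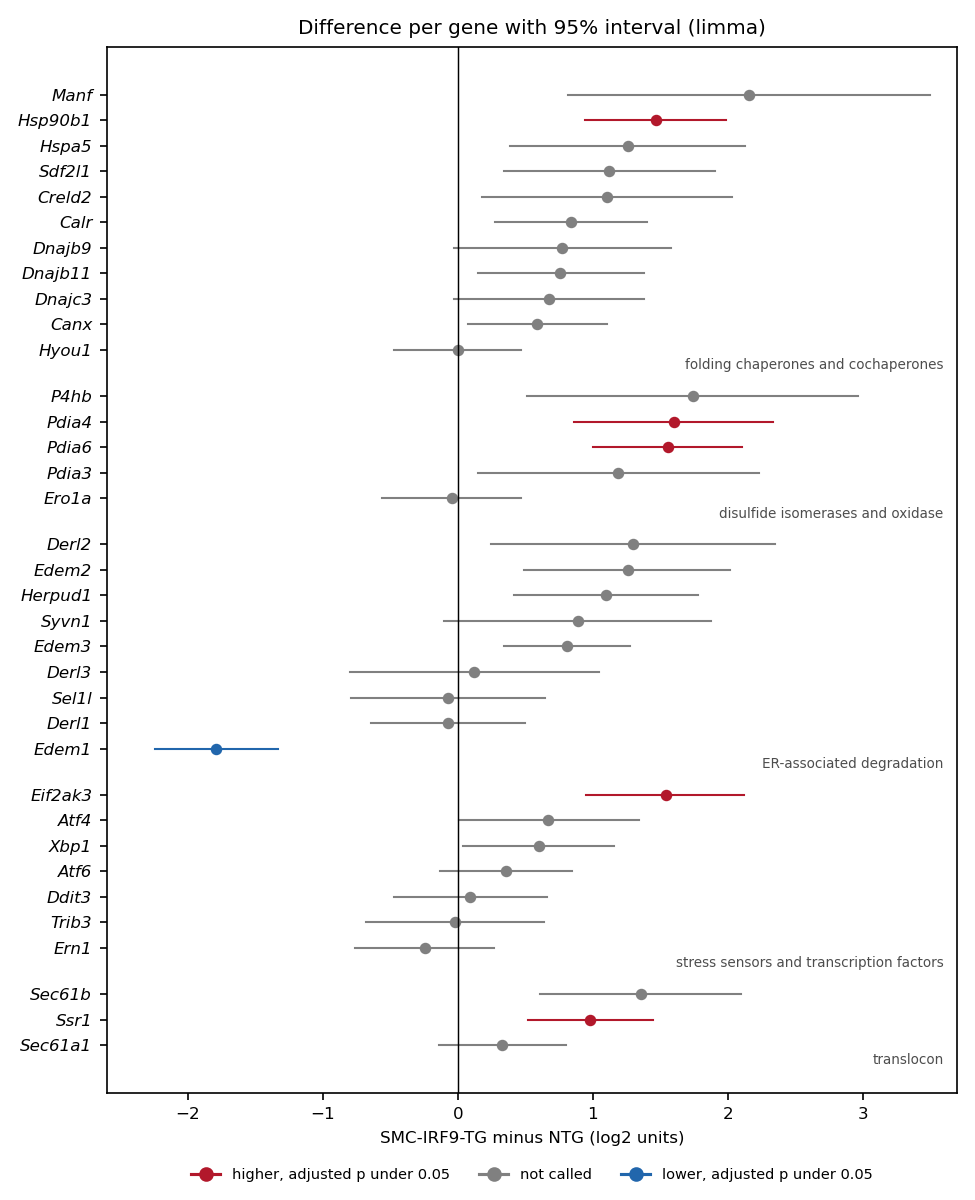
Difference of each gene with its 95% interval from limma (y axis: gene, ordered within each role by size; x axis: SMC-IRF9-TG minus NTG in log2 units). Red marks the 5 genes called higher, blue the Edem1 probe set called lower, and grey the 29 not called; the widest interval, that of Manf, runs from 0.82 to 3.5.

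Among 7 stress sensors and transcription factors, 1 was called higher and 6 were not called, and the median difference was 0.36, the smallest of the role groups. Eif2ak3 (PERK) read 7.46, 6.77 and 6.81 in SMC-IRF9-TG pools against 5.23, 5.42 and 5.77 in NTG pools. The groups lay a full unit apart, with a difference of 1.54 ± 0.25 (SE), a fold of 2.90, and a limma adjusted p of 0.0199. Ern1 (IRE1) read 6.71, 6.24 and 6.24 in SMC-IRF9-TG pools against 6.55, 6.92 and 6.45 in NTG pools. Its pools overlapped and its difference of -0.24 had a 95% interval of -0.76 to 0.27.

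Atf6 read 5.82, 5.52 and 5.72 in SMC-IRF9-TG pools against 5.61, 5.05 and 5.32 in NTG pools. The pools overlapped narrowly, and the difference of 0.36 had a limma adjusted p of 0.337. Xbp1 read 10.14, 9.55 and 9.54 in SMC-IRF9-TG pools against 8.99, 8.97 and 9.46 in NTG pools. NTG pool 3 came within 0.1 of the SMC-IRF9-TG pools, and the difference of 0.60 had a limma adjusted p of 0.2.

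Atf4, the transcription factor downstream of PERK, read 8.64, 8.24 and 8.02 in SMC-IRF9-TG pools against 7.88, 7.05 and 7.96 in NTG pools. The groups were separate by a hair, with a difference of 0.67 and a limma adjusted p of 0.22, which was 0.38 without NTG pool 2, and the next Atf4 probe set differed by 0.04. Ddit3, which encodes the pro-apoptotic factor CHOP, read 7.11, 6.61 and 6.26 in SMC-IRF9-TG pools against 6.41, 6.68 and 6.59 in NTG pools. Trib3, a pseudokinase induced by ATF4 and CHOP, read 3.86, 3.48 and 3.62 in SMC-IRF9-TG pools against 3.14, 3.63 and 4.24 in NTG pools.

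Pools of both genes overlapped, with differences of 0.09 for Ddit3 (95% interval -0.47 to 0.66) and -0.02 for Trib3 (-0.68 to 0.64), and Trib3 lay near the median level of the array. Whether the response of these genes differed from that of the chaperones was not tested.

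Of 3 translocon genes, Ssr1, a subunit of the translocon-associated protein complex, read 8.90, 8.89 and 8.88 in SMC-IRF9-TG pools against 7.63, 7.94 and 8.17 in NTG pools. The SMC-IRF9-TG pools were almost identical and above all NTG pools, with a difference of 0.98 ± 0.20 (SE), a fold of 1.97, and a limma adjusted p of 0.0444. Sec61b, the small β subunit of the channel, differed by 1.36 with an adjusted p of 0.0708, and Sec61a1, the channel itself, by 0.33. Sec61b pools were separate and those of Sec61a1 overlapped.

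Most calls on single genes did not hold in each fit that left out 1 array. When each array was left out in turn, Edem1 was called lower in all 6 fits, Pdia6 higher in 4, Hsp90b1 in 3, Eif2ak3 in 2, and Pdia4 and Ssr1 in 1 each. Without SMC-IRF9-TG pool 1, and again without SMC-IRF9-TG pool 2, none of the 35 genes was called higher by limma. In these fits 16 and 19 genes had an unadjusted limma p under 0.05 in either direction. The share of all probe sets with such a p was not counted there. The differences moved less than the calls. Without SMC-IRF9-TG pool 1 they were 1.25 for Hsp90b1, 1.74 for Pdia4, 1.42 for Pdia6, 1.31 for Eif2ak3 and 0.98 for Ssr1. With all arrays the same genes differed by 1.47, 1.60, 1.56, 1.54 and 0.98. Without NTG pool 1, 1 gene was called higher (Pdia6), without NTG pool 2, 4, without NTG pool 3, 6, and without SMC-IRF9-TG pool 3, 3. Of all probe sets, 0.824%, 0.659% and 0.919% were called higher without SMC-IRF9-TG pools 1, 2 and 3. The shares were 1.14%, 2.58% and 2.82% without NTG pools 1, 2 and 3, and 2.37% with all arrays. Fits with a block for the pools of high Xist or for those of low poly-A spike-in signal called none higher and none lower, with 13 and 9 unadjusted p-values under 0.05 and median differences of 0.63 and 0.46. These blocks called only 0.386% and 0.115% of all probe sets higher, so few calls among 35 genes could arise in them. For the unadjusted counts of these fits, the share of all probe sets was not counted. High Xist leaves NTG pool 3 as the one NTG pool alike to the SMC-IRF9-TG pools, and low poly-A signal, at 4.66, 4.22 and 8.30 in SMC-IRF9-TG pools against 10.64, 6.95 and 9.11 in NTG pools, leaves SMC-IRF9-TG pool 3 as the one alike to the NTG pools.

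SMC-IRF9-TG pool 1 was the highest SMC-IRF9-TG pool in 25 of the 35 genes (71.4%), where it was so in 38.2% of named genes. Its level minus the mean of the other SMC-IRF9-TG pools had a median of 0.42 over the 35 genes and 0.04 over named genes. The gap was largest for Creld2 (1.45), Hspa5 (1.37), Sdf2l1 (1.18), Dnajb9 (1.09), Manf (1.06) and Herpud1 (1.02). Among the other chaperone genes the gap was 0.64 for Hsp90b1, 0.5 for Dnajb11, 0.47 for Canx and 0.32 for Calr. It was 0.19 for Hyou1 and -0.12 for Dnajc3. It was most negative for Pdia4 (-0.42), Derl2 (-0.46), P4hb (-0.47) and Edem2 (-0.52). The median level of the 35 genes was 7.92, 7.54 and 7.27 in SMC-IRF9-TG pools 1, 2 and 3, against 7.03, 7.05 and 7.20 in NTG pools.

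In the same pool some genes of antibody-secreting cells, which have a large ER, were high, while others were not. Jchain, the joining chain of secreted antibody, read 5.62, 3.73 and 2.36 in SMC-IRF9-TG pools against 2.28, 2.06 and 2.39 in NTG pools, and Ighm read 7.60, 5.53 and 5.70 in SMC-IRF9-TG pools against 5.58, 5.44 and 5.94 in NTG pools. Both were highest in SMC-IRF9-TG pool 1. The summed level of 11 B cell and plasma cell markers was 8.13 to 8.97 in SMC-IRF9-TG pools, with the highest in pool 1, and 7.54 to 7.70 in NTG pools, while Sdc1 alone was called higher. Over these 11 markers the median difference was 0.04, with 5 negative. Mzb1, an ER protein of plasma cells, read 4.23, 3.82 and 3.98 in SMC-IRF9-TG pools against 4.23, 4.73 and 4.88 in NTG pools. The plasma cell markers Tnfrsf17 and Pou2af1 stayed at 2.19 and 1.86 on average in SMC-IRF9-TG pools and 2.53 and 2.35 in NTG pools, near the bottom of the array. The part of these cells in the levels of ER genes was not tested.

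**Figure D4:**
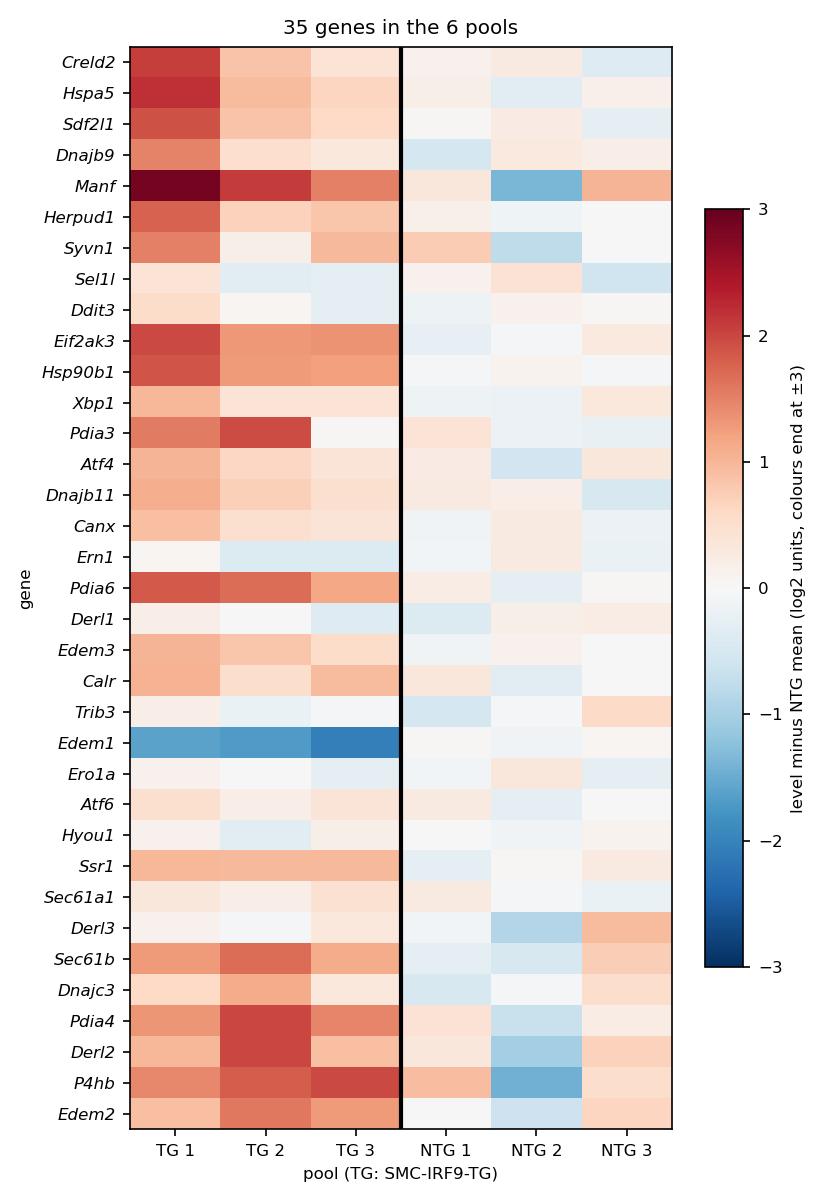
Level of each gene in each pool minus its NTG mean (colour, log2 units; rows are genes ordered by how far SMC-IRF9-TG pool 1 stood above the other SMC-IRF9-TG pools; columns are pools, with SMC-IRF9-TG on the left). The top rows, from Creld2 to Herpud1, are darkest in SMC-IRF9-TG pool 1, and NTG pool 2 is blue for Manf, Derl2 and P4hb.

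On the NTG side, pool 2 was the lowest NTG pool in 17 of the 35 genes (48.6%), against 37.7% of named genes. Its level minus the mean of the other NTG pools was -2.17 for P4hb, -2.07 for Manf, -1.52 for Derl2 and -1.0 for Pdia4. This is also the pool with the widest gap between 3′ and 5′ signal, and the part of RNA integrity in these values was not tested. Over the 35 genes the level of NTG pool 2 minus the mean of the other NTG pools had a median of -0.15, against -0.02 for named genes.

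Other probe sets changed the picture for several genes. The 35 genes had 89 probe sets, of which 8 were called higher and 1 lower, where 2.37% and 0.373% of all probe sets were, and in 18 of the 27 genes with several probe sets the brightest 2 had differences of the same sign. Canx was called higher on its second probe set, which read 7.34, 7.27 and 7.36 in SMC-IRF9-TG pools against 5.25, 4.15 and 5.11 in NTG pools, a difference of 2.48 with a limma adjusted p of 0.00541. There the groups were about 2 units apart, while the brightest Canx probe set differed by 0.59. Dnajc3, the PERK inhibitor p58IPK, was called higher on a dimmer probe set, with a difference of 1.56 and an adjusted p of 0.0489.

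Hspa5 read 9.79, 8.84 and 8.29 in SMC-IRF9-TG pools against 7.53, 5.97 and 7.30 in NTG pools on its second probe set, a difference of 2.04 with a limma adjusted p of 0.0659, and its dimmest probe set differed by -0.33. Xbp1 differed by 1.73 on its second probe set, where NTG pool 2 read 5.92 against 8.07 and 8.11 in the other NTG pools. Without that pool the difference was 1.01, with a limma adjusted p of 0.045, against 0.124 with all pools. The third Xbp1 probe set differed by 1.48, and by 0.44 without NTG pool 2, and the fourth by -0.17. The second probe sets of Pdia4, Pdia6 and Eif2ak3 were dim, at 3.56 or lower in every pool, with differences of -0.38, -0.22 and -0.21. When the probe sets of each gene were averaged instead of taking the brightest, Hsp90b1 and Canx were called higher and no gene lower. The share of all named genes called there was not counted. In that fit Edem1 differed by 0.05 and Edem3 by -0.01, both turned in sign, and Eif2ak3 by 0.21, Pdia4 by 0.61, Pdia6 by 0.67 and Ssr1 by 0.64.

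**Figure D5:**
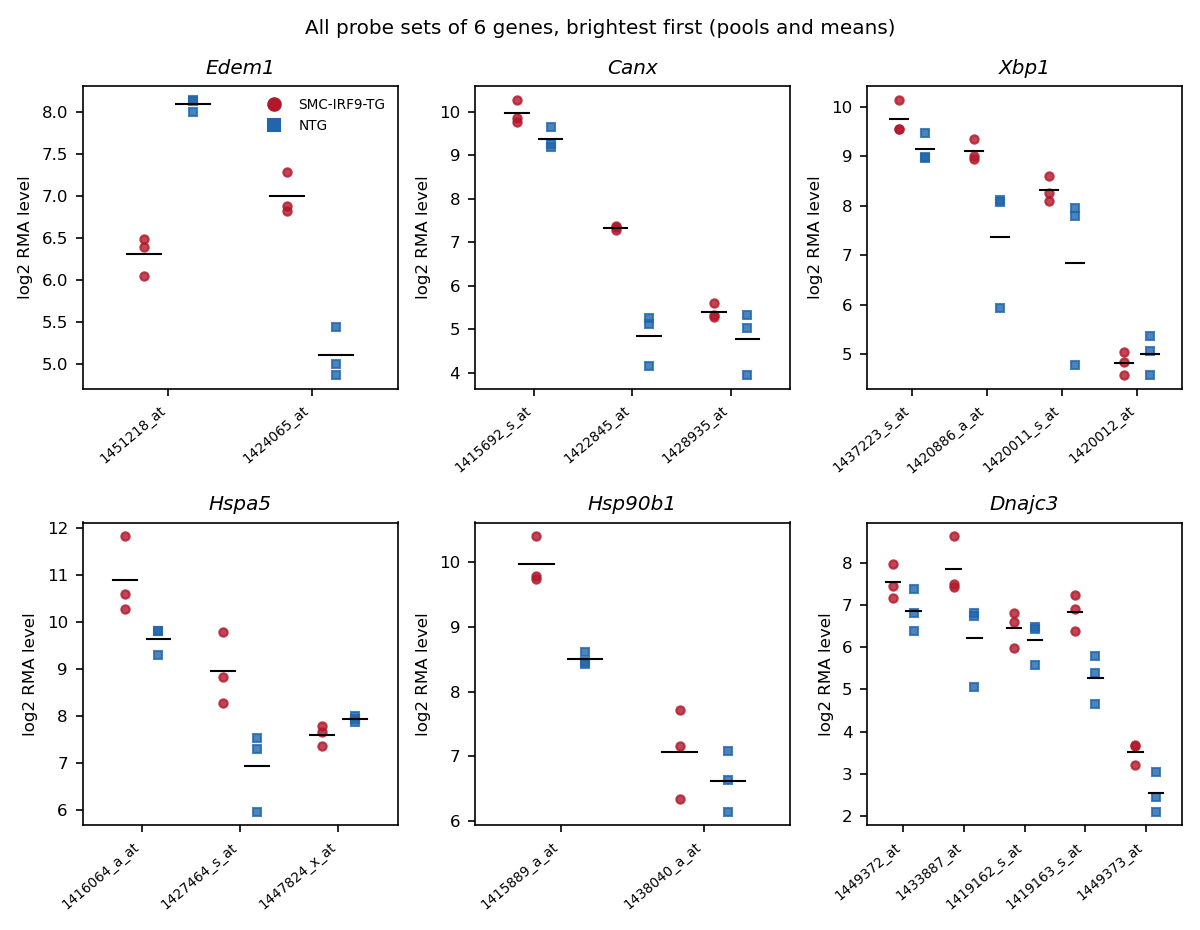
Every probe set of 6 genes, brightest at the left of each panel (y axis: log2 RMA level; circles: SMC-IRF9-TG pools; squares: NTG pools; bars: means of 3). The probe sets of Edem1 run in opposite directions, -1.79 and 1.89, while the first 2 of Canx both run upward, by 0.59 and 2.48.

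A wider list of 162 genes of the same pathways, 153 of them measured, gave 17 called higher, none lower by limma and 136 not called, with a median difference of 0.42 and 126 positive differences, where 3.11% of all named genes were called higher and 46.3% had a positive difference. In this list 59 genes were higher and 4 lower at an unadjusted p under 0.05, which 24.7% of named genes passed in either direction. Other ER chaperones held 6 of the calls among 28 genes. Rcn1, a calcium-binding protein of the ER lumen, averaged 8.42 ± 0.08 in SMC-IRF9-TG pools and 6.64 ± 0.37 in NTG pools (SD, n = 3 each) and was called in all 6 fits that leave out a pool. Fkbp11, a prolyl isomerase of secretory cells, differed by 2.10, Hspa13, an HSP70 relative, by 1.5 and Fkbp14, a collagen-directed prolyl isomerase, by 1.19.

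Oligosaccharyltransferase, the enzyme that attaches N-glycans, had 2 of 9 genes called higher, Tusc3 by 1.94 and Ostc by 1.20. Among 14 other disulfide isomerase genes, Erp29, Txndc5 and Pdia5 were higher by 1.51, 1.08 and 1.07. Tram1, which assists entry at the translocon, was higher by 1.20, the only call among 20 genes of translocation, signal peptide cleavage and the signal recognition particle. Of 22 genes of transport between ER and Golgi, Kdelr3, a receptor that returns ER chaperones, was higher by 1.28 and Lman1, a cargo lectin, by 1.02.

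Targets of ATF4 and PERK had 3 of 20 genes called higher: Psat1 of serine synthesis by 1.63, Asns of asparagine synthesis by 1.60 and Nupr1, a stress-induced chromatin protein, by 1.22. Atf3, a transcription factor of the same list, read 7.71, 6.94 and 7.55 in SMC-IRF9-TG pools against 8.67, 8.31 and 8.53 in NTG pools, the lowest difference of the wider list at -1.10, with a limma adjusted p of 0.0574. None was called by limma among 10 genes of lectin and glycan quality control, 14 of degradation and p97, and 16 other sensors and regulators, where 2, 3 and 4 genes were higher at an unadjusted p under 0.05. The brightest of these differed by 0.42 (Os9) and 0.41 (Prkcsh), by 0.89 (Selenos) and 0.01 (Vcp), and by 0.19 each for Tmbim6 and Creb3.

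Marker genes of several cell types of the artery also differed between the genotypes. Of 15 macrophage markers, 12 were called higher, with a summed level of 12.23 to 12.76 in SMC-IRF9-TG pools and 7.93 to 8.94 in NTG pools. Of 10 fibroblast markers, 6 were called higher, with a summed level of 14.29 to 14.41 in SMC-IRF9-TG pools and 12.49 to 12.61 in NTG pools, and Col1a1 was higher by 2.48 and Col3a1 by 1.71. None of 10 contractile smooth muscle markers was called by limma or passed an unadjusted p of 0.05, with a summed level of 14.53 to 14.59 in SMC-IRF9-TG pools and 14.05 to 14.56 in NTG pools. Of 10 endothelial markers 2 were called higher. T cell, thyroid, skeletal muscle, adipocyte and nerve lists had no call in the limma fit, with an unadjusted p under 0.05 for 1 T cell marker that read higher and for 2 thyroid, 2 skeletal muscle and 1 nerve markers that read lower. The part of these cell types in the levels of ER genes was not tested.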

How the data were processed

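Per the labels, the authors' log2 values come from RMA run in Affymetrix Expression Console, in versions not stated in the sources at hand. RMA subtracts background, matches array distributions and combines the probes of each set, yet the deposited columns differ in distribution: medians ran from 3.42 to 3.66, and the quartiles lay wider apart in SMC-IRF9-TG than in NTG pools. Nothing further was applied. Detection above background was not checked, and the number of arrays limits the precision.

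Of 45101 probe sets, 64 controls were left out and 45037 tested. By the annotation, 34945 belong to 1 gene, 932 to several, and 9160 have no gene name. Groups were compared with limma 3.58.1 in R 4.3.3 (lmFit, eBayes, 2-sided, Benjamini-Hochberg); tables and figures used Python 3.11.15. On simulated data with 45037 probe sets, limma recovered 3 of 67 changes of 1 log2 unit, 43 of 67 of 2 and 66 of 66 of 4, and called 1 of 44837 unchanged. Fewer probe sets were changed there than the 1237 called in the arrays. The adjustment is then stricter, so recovery in the arrays may be understated. The methods give a t-test of 2 groups for the study, run here as an alternative.

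The members and lists were chosen with earlier results of these data known. Pools are given for each called gene and for Hspa5, Hsp90b1, Calr, Xbp1, Ern1, Eif2ak3, Atf6, Atf4, Ddit3 and Trib3; in each wider list the passing genes up to 4 by size of difference, or the 2 of highest mean where none passed, are named. Per-pool values given for other genes, Atf3 and the marker genes named were chosen after their values were seen. Alternatives were centring, quantile normalization, a filter on dim probe sets, a trended and robust prior, array weights, the t-test, a replicate block, other thresholds, the mean of probe sets and each array left out; the 2 blocks for Xist and poly-A signal were added after seeing the data.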

Additional observations from a re-analysis of the deposited data

How the results depend on the processing

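Of the 35 genes, 5 were called higher and 1 lower. The count higher was 1 after quantile normalization, 2 with the replicate block, 2 with the mean of probe sets, 10 at a threshold of 0.1 and 0 at 0.01, and ran from 0 to 6 with an array left out; the count lower was 1 in each of those fits and 0 with the mean of probe sets. The methods' t-test called 0 higher and 0 lower after adjustment, with 12 unadjusted p-values under 0.05. The blocks for high Xist and for low poly-A signal, chosen after seeing the data, also gave 0 and 0. These 2 blocks called 0.386% and 0.115% of all probe sets higher. Quantile normalization called 1.21% and the replicate block 1.46%, against 2.37% with no alternative applied. For the mean of probe sets and the other thresholds, this share was not counted. The methods' test called 0 higher and 1 lower of all probe sets, so its counts say nothing of these genes. For its unadjusted count, the share of all probe sets was not counted. The replicate numbers did not pair the pools (correlations of -0.15, -0.0006 and 0.027). The median difference of 0.81 was 0.51 after quantile normalization and 0.46 with the poly-A block, and 0.62 to 0.90 with an array left out.

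In the wider list, 17 called higher became 1 with the Xist block, 0 with the poly-A block (as with the t-test), 3 after quantile normalization, 7 with the replicate block, 27 at a threshold of 0.1 and 1 at 0.01, and 1 to 17 with an array left out. The count lower, 0, was 1 with the mean of probe sets, without dim probe sets and at a threshold of 0.1, and 0 with an array left out. Quantile normalization called 1.21% of all probe sets higher and the replicate block 1.46%, against 2.37% with no alternative applied. For the other thresholds, this share was not counted. The methods' test called 0 of all probe sets higher, so its count says nothing of this list either.

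With the mean of probe sets, Edem1 turned to 0.05 and Edem3 to -0.01, against -1.79 and 0.81, and Ero1a, Sel1l and Derl1 were 0.38, 0.22 and 0.55. In the other fits the genes that changed sign had been near 0 before, at -0.07 to 0.12, and none was called. Some then lay well away from 0. With centring, which moved the median difference of all probe sets to -0.03, against -0.13 before, Hyou1 was 0.09, Ero1a 0.05, Sel1l 0.02, Derl1 0.03 and Trib3 0.08. With array weights Hyou1 was 0.04 and Trib3 0.09. With the Xist block Ero1a was 0.22, Sel1l 0.52 and Derl3 -0.82, and with the poly-A block Hyou1 was 0.17 and Ddit3 -0.31. After quantile normalization Ddit3 was -0.20 and Trib3 0.03. With an array left out the ranges were -0.09 to 0.15 for Hyou1, -0.18 to 0.13 for Ero1a, -0.36 to 0.15 for Sel1l, -0.27 to 0.09 for Derl1, -0.31 to 0.60 for Derl3, -0.13 to 0.29 for Ddit3 and -0.28 to 0.27 for Trib3. The cause of these changes was not tested.

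Over the 15 alternative fits on the brightest probe sets, the called genes kept their direction. The limma or t-test adjusted p ran from 0.0032 to 0.0907 for Edem1, 0.0112 to 0.46 for Pdia6, 0.0119 to 0.455 for Hsp90b1, 0.0111 to 0.487 for Eif2ak3, 0.0264 to 0.605 for Pdia4 and 0.0233 to 0.616 for Ssr1. With 3 pools a group, changes of 1 unit were seldom called on simulated data, in which fewer probe sets changed than were called in the arrays. Values near the bottom of the array may not lie above background.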
